A study of Mus musculus with 4 samples.

Results

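Cells that clear dead tissue and myelin take up lipoproteins and lipid debris, store the surplus as neutral lipid and send cholesterol out again, and 10 genes for these steps were followed in the injured spinal cord. They were chosen by name, with earlier results of these data known, and cover uptake (CD36, MSR1 and LPL), storage (PLIN2 and SOAT1), the release of cholesterol from lysosomes (LIPA and NPC2) and its export (NR1H3, ABCA1 and ABCG1). The whole series lists 14718 gene symbols, written in capitals, and all 10 genes were among the 14125 symbols at 7 days post injury (dpi), whereas 7 of them were among the 11472 at 21 dpi. No row for CD36, LIPA or NPC2 was analysed at 21 dpi. Of all symbols listed at 7 dpi, 23.0% had no row at 21 dpi in the table used here, and this was so for 31.4% of the 3286 genes that averaged 100 FPKM or more at 7 dpi.

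RNA-seq was run on the lesion segment of the spinal cord of male mice, 3 to 5 months of age at surgery, after a contusion of 50 kdyne at a thoracic level. Every mouse was a targeted replacement animal and carried a human coding sequence, for ApoE3 or for ApoE4, at its ApoE gene. There is thus no mouse with its own ApoE among the groups, and no uninjured animal either. The 4 groups are ApoE3 at 7 dpi, ApoE4 at 7 dpi, ApoE3 at 21 dpi and ApoE4 at 21 dpi. Each group is represented by 1 deposited value per gene, which the authors' program made from 3 mice, so the spread between mice is not in the values used here. No test was run on them, and the p-values that the authors deposited were not used, so no difference described here has a replicate check. Levels are in FPKM (fragments scaled to transcript length and to the size of the library), which keeps no read number for a gene. The authors brought all libraries down to the size of the smallest, and the part of depth in the values of single genes was not tested.

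Ratios between genotypes are log2 ratios of ApoE3 over ApoE4 after adding 1 FPKM to each value. A negative ratio means a higher level in ApoE4, and a gene was counted as past the threshold at a difference of at least 1.3-fold. The added 1 FPKM makes the change of weakly expressed genes look smaller. The assignment of both value columns to the genotypes rests on the name that each row gives to its comparison and on its deposited fold change. That fold change has the column read as ApoE3 as its numerator. By the numbering of the columns it would be the other way round, and then each direction between genotypes given here would be the opposite.

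In macrophages, the scavenger receptors CD36 and MSR1 bind modified lipoproteins and debris, and lipoprotein lipase (LPL) frees fatty acids from triglyceride-rich particles. Cholesterol esters that enter the cell are split in the lysosome by acid lipase (LIPA), NPC2 hands the free cholesterol on toward the lysosomal membrane, SOAT1 esterifies it again, and perilipin 2 (PLIN2) coats the droplets in which the esters are kept. Oxysterols made from surplus cholesterol activate the liver X receptors, of which NR1H3 encodes LXR alpha, and these raise transcription of the transporters ABCA1 and ABCG1, which load cholesterol onto ApoE and other acceptors. After spinal cord injury, macrophages and microglia filled with myelin lipid are known as foam cells. The comparison of genotypes asks whether the genes for these steps were at different levels in ApoE3 and ApoE4 tissue.

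The replaced gene itself cannot serve as a check of the labels, because both genotypes carry a human coding sequence. A row named APOE was listed at 21 dpi with 843.4 FPKM in ApoE3 and 1311 FPKM in ApoE4, and no APOE row was analysed at 7 dpi.

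At 7 dpi the scavenger receptor gene CD36 and the droplet coat gene PLIN2 were the most abundant of the set. CD36 had 1292 FPKM in ApoE3 and 1805 FPKM in ApoE4, and ranked 128th and 77th by level among the 14127 rows of those groups. PLIN2 followed with 800.4 FPKM in ApoE3 and 1119.7 FPKM in ApoE4. Of the summed FPKM of the 10 genes, CD36 made up 40.4% in ApoE3 and 42.8% in ApoE4, and PLIN2 25.0% and 26.6%. The cholesterol transporter ABCA1 was next, with 302 FPKM in ApoE3 and 339.9 FPKM in ApoE4. The esterifying enzyme SOAT1 (181 and 209 FPKM), the acid lipase LIPA (181 and 224 FPKM) and the sterol carrier NPC2 (158 and 178 FPKM) lay close together in both genotypes. MSR1 had 120.1 FPKM in ApoE3 and 159 FPKM in ApoE4. LPL had 71.1 FPKM in ApoE3 and 90.7 FPKM in ApoE4. The least abundant were the genes of the receptor NR1H3, with 51.3 FPKM in ApoE3 and 52.4 FPKM in ApoE4, and of the second transporter ABCG1, with 40.1 and 37.6 FPKM. The order by level was the same in both genotypes, with LIPA and SOAT1 less than 1 FPKM apart in ApoE3, and without a spread it cannot be said which neighbours differ.

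**Figure D1:**
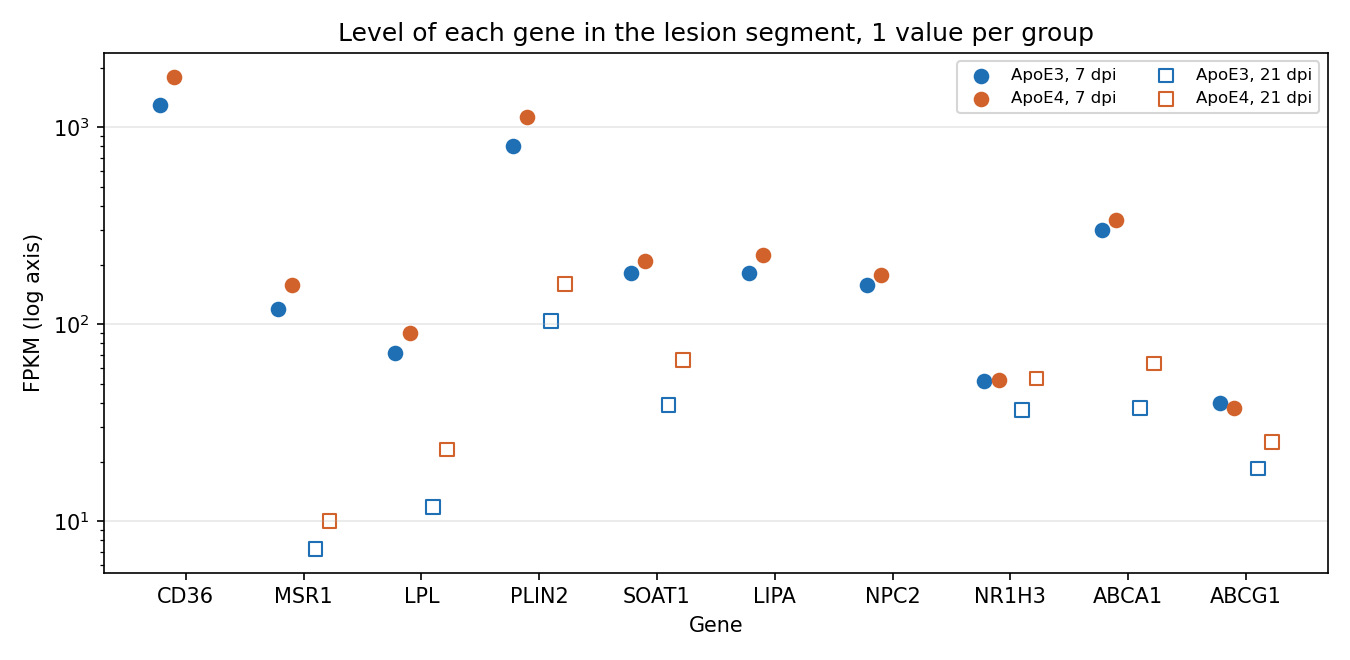
Level of each of the 10 genes in FPKM on a log axis, with 1 deposited value per group (filled circles 7 dpi, open squares 21 dpi, blue ApoE3, orange ApoE4). CD36 and PLIN2 stand highest at 7 dpi, up to 1805 FPKM, and the 7 genes listed at 21 dpi lie between 7.25 and 159.9 FPKM there.

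PLIN2 and CD36 also had the largest differences between genotypes at 7 dpi, followed by MSR1. PLIN2 and CD36 were each 1.40-fold higher in ApoE4 (log2 ratio -0.48 for both), and MSR1 was 1.32-fold higher (log2 ratio -0.40). These were the 3 of 10 genes past 1.3-fold in that direction, against 4.76% of the 14127 listed rows, a share that takes no account of how the genes were chosen. None of the 10 was past 1.3-fold in the direction of ApoE3, against 3.78% of the rows. Among all rows ordered by ratio, 2.58% lay lower than PLIN2, 2.60% lower than CD36 and 4.18% lower than MSR1.

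LPL was just below the threshold, 1.27-fold higher in ApoE4, and LIPA was 1.23-fold higher. Smaller differences in the same direction were found for SOAT1 (1.16-fold), ABCA1 (1.13-fold) and NPC2 (1.12-fold). On the export side, the values of NR1H3 differed by 1.02-fold, and ABCG1 was the single gene of the set with its higher value in ApoE3 (log2 ratio 0.09). So 9 of the 10 genes were higher in ApoE4 at 7 dpi, against 49.5% of all rows. The median log2 ratio of the 10 was -0.26, where the median over all genes averaging 1 FPKM or more was 0.0018. The set was thus not uniform, with PLIN2, CD36 and MSR1 at one end and NR1H3 and ABCG1, closest to a ratio of 0, at the other. The storage gene SOAT1 lay in the middle beside ABCA1 and NPC2, with the lysosomal LIPA farther out.

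**Figure D2:**
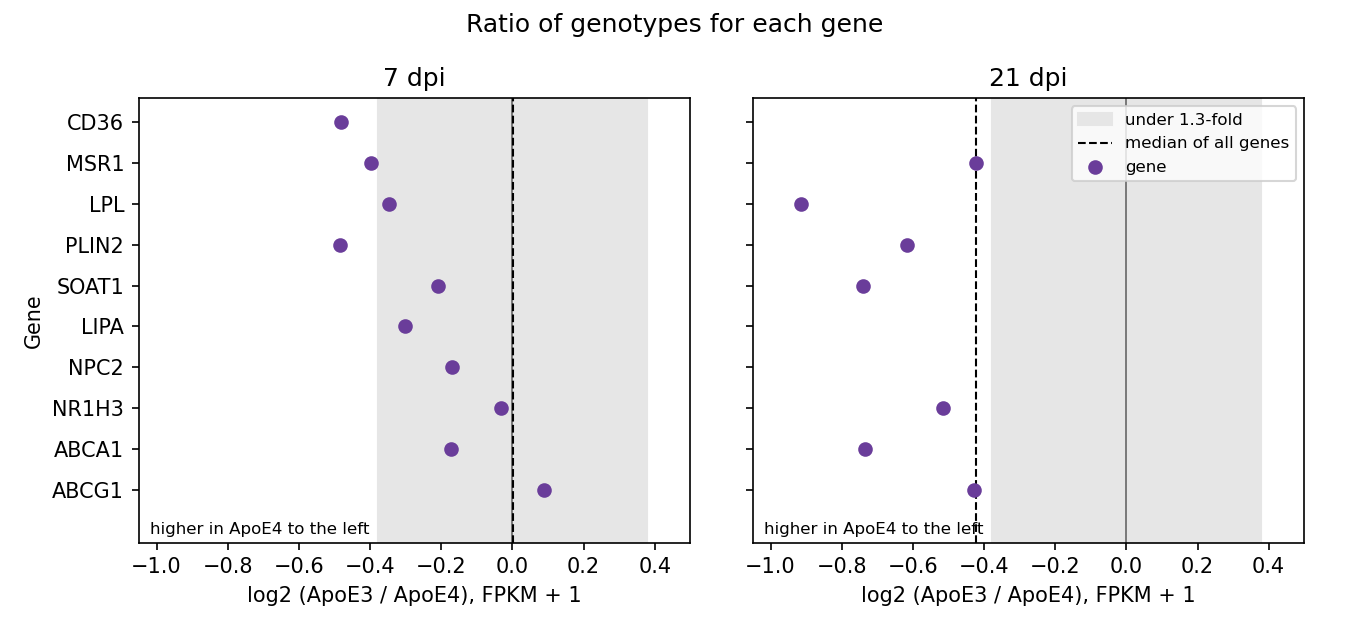
Log2 ratio of ApoE3 over ApoE4 for each gene at 7 dpi (left, 10 genes) and 21 dpi (right, 7 genes), from FPKM plus 1, with the band under 1.3-fold in grey and the median of all genes as a dashed line. At 7 dpi PLIN2, CD36 and MSR1 lie left of the band, and at 21 dpi all 7 genes do, where the median of all genes, at -0.42, lies left of it too.

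Promoter sequences of 7 of the 10 genes were found in the RefSeq table of GRCm38.p6 (SOAT1, NR1H3, ABCA1, PLIN2, CD36, NPC2 and LIPA), each window running from 250 bases before to 50 bases after the start of transcription. ABCG1, MSR1 and LPL had no entry. The windows were searched on both strands for the direct repeat of AGGTCA with 4 bases between (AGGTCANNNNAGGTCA), to which LXR is known to bind, and with 1 base between (AGGTCANAGGTCA), to which PPAR is known to bind, allowing 2 mismatches in the repeated letters of each. The palindrome TCACGTGA, the core of the element that TFEB binds at lysosomal genes, was searched without mismatches. A match to the repeat with 1 base between was found for PLIN2 and CD36, and in none of the other 5 genes, and 3.86% of the 32851 promoters in the table hold one. The repeat with 4 bases between, held by 3.02% of all promoters, and the palindrome, held by 0.974%, had no match in the 8 windows of the 7 genes. Repeats with more than 2 mismatches and sites outside the windows were not counted. A gene without a match, ABCA1 among them, may therefore still have an element that LXR or PPAR binds. PLIN2 and CD36, the pair with the largest ratios at 7 dpi, are shown here because of the match to the repeat with 1 base between, which is in capitals. It is 13 bases long, lies on the strand opposite to the gene with 2 mismatches, and begins 225 bases before the start site in PLIN2 (chr4:86670010-86670309, minus strand) and 63 bases before it in CD36 (chr5:17835847-17836146, minus strand).
PLIN2: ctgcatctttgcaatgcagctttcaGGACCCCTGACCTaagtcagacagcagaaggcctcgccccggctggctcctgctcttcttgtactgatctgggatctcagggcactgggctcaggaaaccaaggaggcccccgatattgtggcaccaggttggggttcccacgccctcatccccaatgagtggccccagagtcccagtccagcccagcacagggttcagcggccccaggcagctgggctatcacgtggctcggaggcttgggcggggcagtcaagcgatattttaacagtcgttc
CD36: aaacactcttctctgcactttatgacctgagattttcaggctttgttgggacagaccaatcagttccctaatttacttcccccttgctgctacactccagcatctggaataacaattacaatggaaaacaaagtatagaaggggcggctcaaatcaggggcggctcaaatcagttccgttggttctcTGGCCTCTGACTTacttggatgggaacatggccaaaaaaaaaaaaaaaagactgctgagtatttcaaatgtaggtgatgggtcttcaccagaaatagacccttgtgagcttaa
Both windows are written 5′ to 3′ on the strand of the gene. Binding of any factor to them was not measured, and a match describes the letters only.

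Other genes of the same steps were compared to see where the differences at 7 dpi lay, and counts in these lists leave out the 10 genes. Of 12 listed receptors for scavenging and lipoprotein uptake, 3 were past 1.3-fold higher in ApoE4 and 2 higher in ApoE3. STAB1, a scavenger receptor of macrophages and sinusoidal endothelium, had 329 FPKM in ApoE3 and 559 FPKM in ApoE4 (log2 ratio -0.76). CXCL16, which also acts as a receptor for oxidized lipoprotein, had 102 and 138 FPKM (log2 ratio -0.44), and the oxidized lipoprotein receptor OLR1 had 6.90 and 9.69 FPKM (log2 ratio -0.44). The scavenger receptors SCARA3 (25.4 and 16.7 FPKM) and SCARA5 (2.67 and 1.48 FPKM) were higher in ApoE3, each with a log2 ratio of 0.57. The median of the 12 was -0.01, with 6 genes higher in each genotype, and their summed level was 1452 FPKM in ApoE3 and 1859 FPKM in ApoE4. With CD36 and MSR1 counted in, the median was -0.18 and 5 of 14 genes were past 1.3-fold toward ApoE4. Of the abundant receptors below the threshold, TREM2 had 460 and 561 FPKM (log2 ratio -0.29) and LRP1 had 256 and 308 FPKM (log2 ratio -0.27).

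Among 16 further genes of sterol export and LXR signalling, 0 were past 1.3-fold in either direction, and the median log2 ratio was -0.07. The transporter ABCA2 had 473 FPKM in ApoE3 and 443 FPKM in ApoE4, and NR1H2, which encodes LXR beta, 395 and 409.9 FPKM. MYLIP, a target of LXR that marks the LDL receptor for degradation, had 17.1 and 19.6 FPKM. PLTP, which moves phospholipid between lipoproteins, had 157 and 156 FPKM.

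Of 17 further genes of lipid droplets and neutral lipid turnover, 1 was past 1.3-fold, in the direction of ApoE4. This was HILPDA, an inhibitor of triglyceride lipase on droplets, with 15.2 FPKM in ApoE3 and 22.5 FPKM in ApoE4 (log2 ratio -0.54). The other droplet coat protein with a value at 7 dpi, PLIN3, had 37.3 and 35.7 FPKM, and ACSL3, which activates fatty acids, had 151 and 126 FPKM (log2 ratio 0.26). The median of the list was 0.02, and -0.01 after subtraction of the median of 12 housekeeping genes.

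Of 17 lysosomal genes beside LIPA and NPC2, 14 were higher in ApoE4, against 49.5% of all rows, and the median log2 ratio was -0.10. Past 1.3-fold was 1 of them, the glycolipid-degrading enzyme gene HEXA with 231 FPKM in ApoE3 and 308 FPKM in ApoE4. GPNMB, a lysosomal and macrophage membrane protein, had 892 and 1098 FPKM (log2 ratio -0.30). NPC1, the membrane partner of NPC2, had 122 and 131 FPKM (log2 ratio -0.10). Of 14 other genes of lipolysis and fatty acid transport, ANGPTL4, an inhibitor of LPL, was past the threshold toward ApoE4 with 14.4 and 20.7 FPKM (log2 ratio -0.50). APOC2, the activator of LPL and a neighbour of the replaced gene, was past it toward ApoE3 with 43.0 and 3.40 FPKM. The median of that list was -0.08.

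Of 16 sterol synthesis genes, 14 had a higher value in ApoE3 at 7 dpi (13 after subtraction of the housekeeping median), with a median log2 ratio of 0.16, where 49.5% of all rows were lower in ApoE3. None of the 16 was past 1.3-fold in either direction, and the difference was not tested. DHCR7 had 155 FPKM in ApoE3 and 136 FPKM in ApoE4, and FDFT1 98.3 and 83.8 FPKM. At 21 dpi the median of 15 listed genes lay 0.03 above that of all genes.

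**Figure D3:**
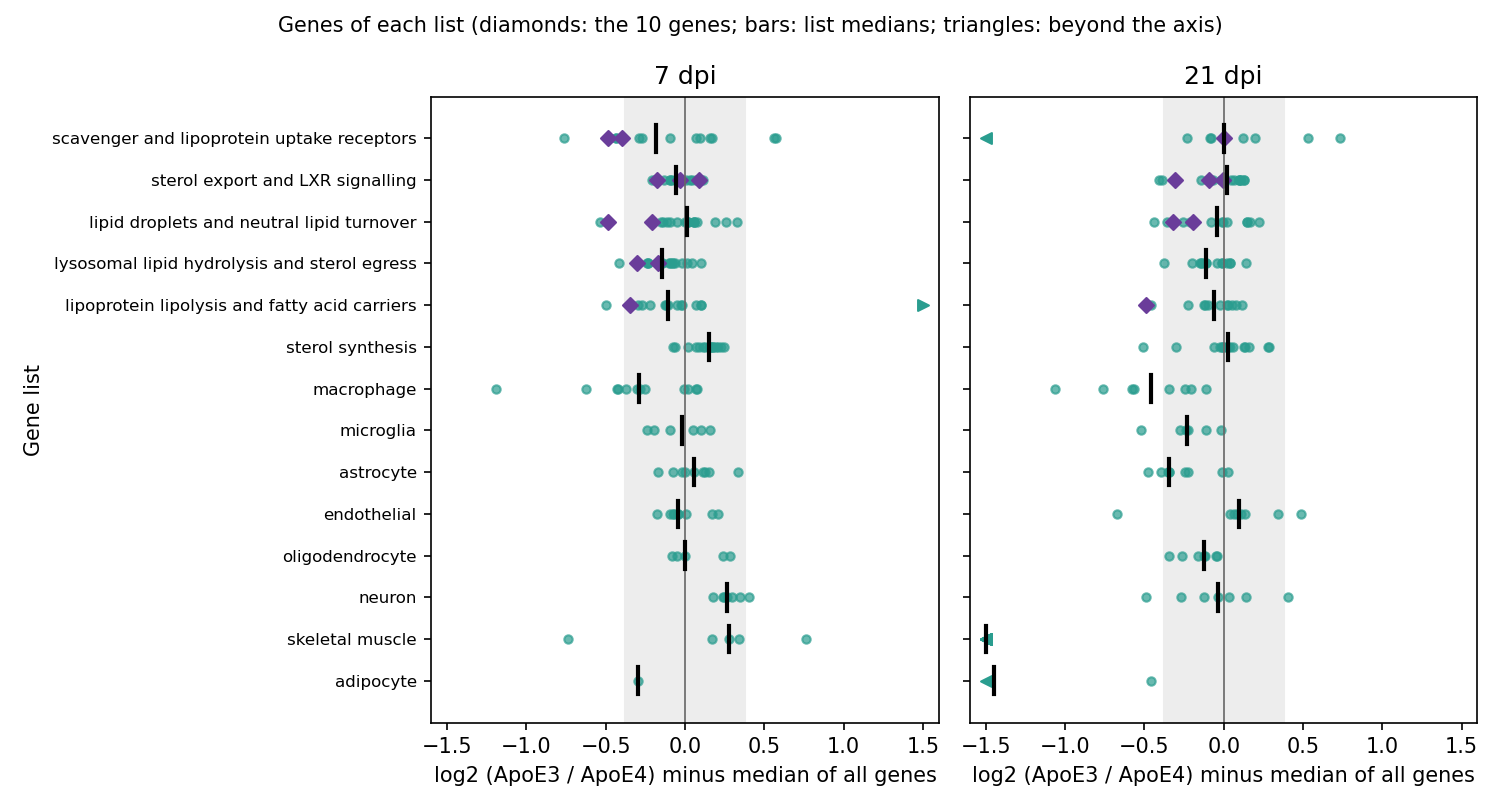
Log2 ratio of ApoE3 over ApoE4 minus the median of all genes for each gene of the lists (rows) at 7 dpi (left) and 21 dpi (right). Points are genes, diamonds genes of the set, black bars list medians with those genes included, triangles values beyond the axis, and the grey band differences under 1.3-fold. Macrophage markers lie mostly left of 0 at both time points, and sterol synthesis genes mostly right of it at 7 dpi.

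Markers of the cells in the segment were set beside these values. In bulk tissue, a different number of cells of a type and a different amount of RNA per cell cannot be told apart. Of 12 macrophage markers, 9 were higher in ApoE4 at 7 dpi (10 against the housekeeping median), where 49.5% of all rows were. Of the 9, 4 were past 1.3-fold, against 4.76% of the rows. The median log2 ratio of the 12 markers was -0.29, near the -0.26 of the set. Their summed level was 7589 FPKM in ApoE3 and 9932 FPKM in ApoE4, a ratio of 1.31, and the most abundant was LYZ2, the lysozyme of myeloid cells, with 4522 and 6076 FPKM. CD68, a lysosomal glycoprotein of macrophages, had 1309 and 1696 FPKM (log2 ratio -0.37), and ARG1, an enzyme of alternatively activated macrophages, 16.5 and 39.0 FPKM (log2 ratio -1.19). ADGRE1 (111 and 109.6 FPKM), FCGR1 (34.0 and 32.1 FPKM) and CCR2 (12.7 and 12.8 FPKM), which also mark macrophages or monocytes, did not share that difference. Nor did MRC1, with 2.02 FPKM in ApoE3 and 1.88 FPKM in ApoE4 (log2 ratio 0.07). Of 6 listed microglia markers, 3 were higher in each genotype, with a median log2 ratio of -0.02. GPNMB and MRC1 are in both the macrophage list and a lipid list. The part of macrophage content in the ratios of CD36, PLIN2 and MSR1 was not tested.

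The 9 astrocyte markers at 7 dpi had a median log2 ratio of 0.06 and sums of 17787 and 17308 FPKM, the 9 endothelial markers -0.04 with 284 and 283 FPKM, and the 5 listed oligodendrocyte markers -0.00055 with 126763 and 133926 FPKM, nearly all from MBP. The 7 listed neuron markers were all higher in ApoE3, with a median of 0.26 and sums of 5558 and 4366 FPKM, led by SNAP25 with 3366 and 2545 FPKM. Muscle and fat use CD36, LPL and the perilipins too. The 5 listed skeletal muscle markers summed to 57.9 FPKM in ApoE3 and 39.3 FPKM in ApoE4 at 7 dpi, with TNNT3 the most abundant (45.7 and 26.5 FPKM). Of these 5, MYL1, a myosin light chain gene, was past 1.3-fold toward ApoE4 with 2.87 and 5.45 FPKM (log2 ratio -0.74), opposite to TNNT3 (log2 ratio 0.76). Of 8 fat cell markers, FABP4, which macrophages also express, was the single one with a row, with 41.6 and 51.3 FPKM.

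At 21 dpi nearly the whole table was shifted. The median log2 ratio of all genes averaging 1 FPKM or more was -0.42, that of 10 listed housekeeping genes was -0.41, and 93.8% of the rows were lower in ApoE3. The summed FPKM was 1513867 in ApoE3 and 2050622 in ApoE4, whereas at 7 dpi it was 1669387 and 1669584. All 7 genes of the set with a row were past 1.3-fold higher in ApoE4, against 58.9% of the 11474 rows, and none was past it in the direction of ApoE3, against 2.02%. Since the threshold is passed by the median gene, the ratios of the 7 genes are given first as deposited and then relative to that median, and the list medians at 21 dpi relative to it. The source of the shift was not tested.

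LPL had 11.8 FPKM in ApoE3 and 23.1 FPKM in ApoE4 at 21 dpi, the largest ratio of the set (log2 ratio -0.91). SOAT1 had 38.9 and 65.8 FPKM and ABCA1 37.5 and 63.1 FPKM, with log2 ratios of -0.74 and -0.73. PLIN2, the most abundant of the 7 at this time, had 104 and 159.9 FPKM (log2 ratio -0.62), and NR1H3 had 36.8 and 53.1 FPKM (log2 ratio -0.52). ABCG1 had 18.6 and 25.3 FPKM (log2 ratio -0.43), and MSR1, now the least abundant, 7.25 and 10.1 FPKM (log2 ratio -0.42). The ratios of ABCG1 and MSR1 were thus those of the median gene.

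After subtraction of the median, LPL was the 1 gene of 7 past 1.3-fold in the direction of ApoE4 (-0.49), against 8.07% of the rows, and none was past it toward ApoE3, against 7.47%. SOAT1 (-0.32), ABCA1 (-0.31) and PLIN2 (-0.19) lay below the median without passing the threshold. NR1H3 was at -0.09 and ABCG1 at -0.01, and MSR1 was at 3.1e-05, on the other side of the median by that amount. The median of the 7 genes was -0.19, where the same 7 genes had -0.21 at 7 dpi after the same subtraction. The genes that led differed in part, as PLIN2 was at -0.49 at 7 dpi and -0.19 at 21 dpi, MSR1 at -0.40 and 3.1e-05, ABCA1 at -0.17 and -0.31, and LPL at -0.35 and -0.49. The differences between the time points were not tested.

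**Figure D4:**
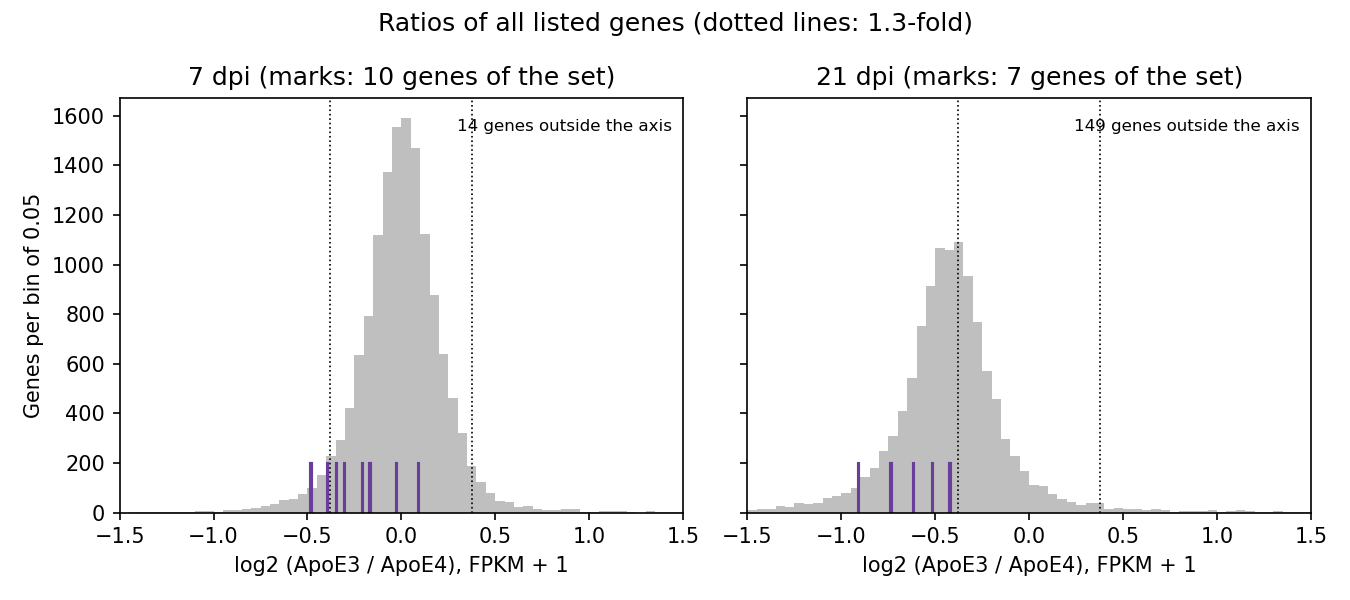
Number of listed genes by log2 ratio of ApoE3 over ApoE4 in bins of 0.05 at 7 dpi (left) and 21 dpi (right), with the genes of the set as short purple lines and 1.3-fold as dotted lines. The bulk of all genes is centred near 0.0018 at 7 dpi and near -0.42 at 21 dpi, and 14 genes at 7 dpi and 149 at 21 dpi lie outside the axis.

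With the median gene set to 0 at 21 dpi, the 13 other genes of sterol export had a median of 0.06, the 12 of lipid droplets -0.01, the 8 uptake receptors 0.02, the 11 of lipolysis and fatty acid transport -0.02, and the 15 lysosomal genes -0.11, with 11 of the 15 below it. Past 1.3-fold on this scale toward ApoE4 were LPCAT3 (28.2 FPKM in ApoE3 and 50.9 FPKM in ApoE4) and CH25H (5.70 and 10.8 FPKM) among the export genes, which are a phospholipid remodelling target of LXR and an enzyme that makes an oxysterol. HILPDA among the droplet genes was past it at this time as well, with 11.4 and 21.6 FPKM (-0.44). FABP4 (-0.46) among the fatty acid carriers and the sterol synthesis gene CYP51 (-0.51) were past it too. Among the receptors, OLR1 had 1.05 FPKM in ApoE3 and 8.42 FPKM in ApoE4 (-1.78), whereas SCARA3 (0.53) and SCARA5 (0.73) were past the threshold toward ApoE3, as at 7 dpi. Several of these values are near 1 FPKM, and their precision was not tested. STAB1, 559 FPKM in ApoE4 at 7 dpi, had 36.7 FPKM in ApoE3 and 43.1 FPKM in ApoE4 at 21 dpi and lay 0.20 above the median, unlike at 7 dpi.

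At 21 dpi each of the 8 listed macrophage markers had a ratio below that of the median gene, with a list median of -0.46 relative to it, and 4 of them were past 1.3-fold on this scale. Their summed level was 383 FPKM in ApoE3 and 721 FPKM in ApoE4, with LYZ2 at 212 and 426 FPKM and MS4A7 at 9.57 and 28.6 FPKM. The 6 listed microglia markers were at -0.23 relative to the median, with sums of 231 and 403 FPKM, led by SIGLECH with 123 and 237 FPKM. The 9 astrocyte markers were at -0.35 with sums of 11298 and 20610 FPKM, the 7 oligodendrocyte markers at -0.13 with 227752 and 321005 FPKM, the 7 neuron markers at -0.03 with 10094 and 13883 FPKM and the 8 endothelial markers at 0.10 with 259.9 and 334 FPKM. The most abundant neuron and endothelial markers were SNAP25 with 5336 and 7812 FPKM and FLT1 with 106 and 138 FPKM.

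Skeletal muscle RNA differed most. All 7 listed muscle markers were higher in ApoE4 at 21 dpi, with sums of 28.0 FPKM in ApoE3 and 696 FPKM in ApoE4. TNNT3, a fast troponin, was the most abundant with 22.5 and 515 FPKM, the myosin gene MYH4 was listed at 0 in ApoE3 with 3.40 FPKM in ApoE4, and no row for MYH1 or CKM was analysed. Of the fat cell markers, CFD was listed at 0 in ApoE3 with 6.27 FPKM in ApoE4, FABP4 had 3.29 and 6.92 FPKM, and the other 6 had no row analysed. LPL is abundant in muscle and fat, and the part of these tissues in its difference at 21 dpi was not tested, nor was that of the macrophages.

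Between the time points most of the 7 genes with values at both were at lower levels at 21 dpi. Both times were compared by the authors in separate genotype comparisons, so a scale difference between them cannot be told apart from a difference in level, and the median of 10876 genes listed at both is given beside it. That median log2 ratio of 21 over 7 dpi was 0.09 in ApoE3 and 0.52 in ApoE4. All 7 genes were lower at 21 dpi by at least 1.3-fold in ApoE3, against 23.6% of these genes, and 6 of 7 were in ApoE4, against 10.9%.

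MSR1 had the widest gap, with 120.1 FPKM at 7 dpi and 7.25 FPKM at 21 dpi in ApoE3 (14.7-fold) and 159 and 10.1 FPKM in ApoE4 (14.4-fold). From the lower end, its change was the 12th of the 10876 genes in ApoE3 and the 11th in ApoE4. PLIN2 was 7.63-fold lower in ApoE3 and 6.96-fold lower in ApoE4, and its rank by level among these genes went from 183 to 2380 in ApoE3 and from 103 to 2131 in ApoE4. ABCA1 was 7.85-fold lower in ApoE3 and 5.32-fold lower in ApoE4. LPL was lower with log2 ratios of -2.49 and -1.93 and SOAT1 with -2.19 and -1.66, in ApoE3 and ApoE4. Of these 5 genes SOAT1 had the last rank of change from the lower end, 109 in ApoE3 and 177 in ApoE4. The ranks of the other 2 genes were 685 and 864 for ABCG1 and 2181 and 2441 for NR1H3.

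The other export genes differed less. ABCG1 was lower at 21 dpi with a log2 ratio of -1.07 in ApoE3 and -0.55 in ApoE4. NR1H3 went from 51.3 to 36.8 FPKM in ApoE3 (1.38-fold) and from 52.4 to 53.1 FPKM in ApoE4 (log2 ratio 0.02, and -0.51 relative to the median of all genes, which turns its direction). So the 2 transporters of the set had unequal gaps, ABCA1 with a log2 ratio relative to the median of -3.06 in ApoE3 and -2.94 in ApoE4, and ABCG1 with -1.16 and -1.08. At 21 dpi PLIN2 made up 40.8% of the summed FPKM of the 7 genes in ApoE3 and 39.9% in ApoE4, NR1H3 14.5% and 13.3%, and MSR1 2.84% and 2.51%.

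**Figure D5:**
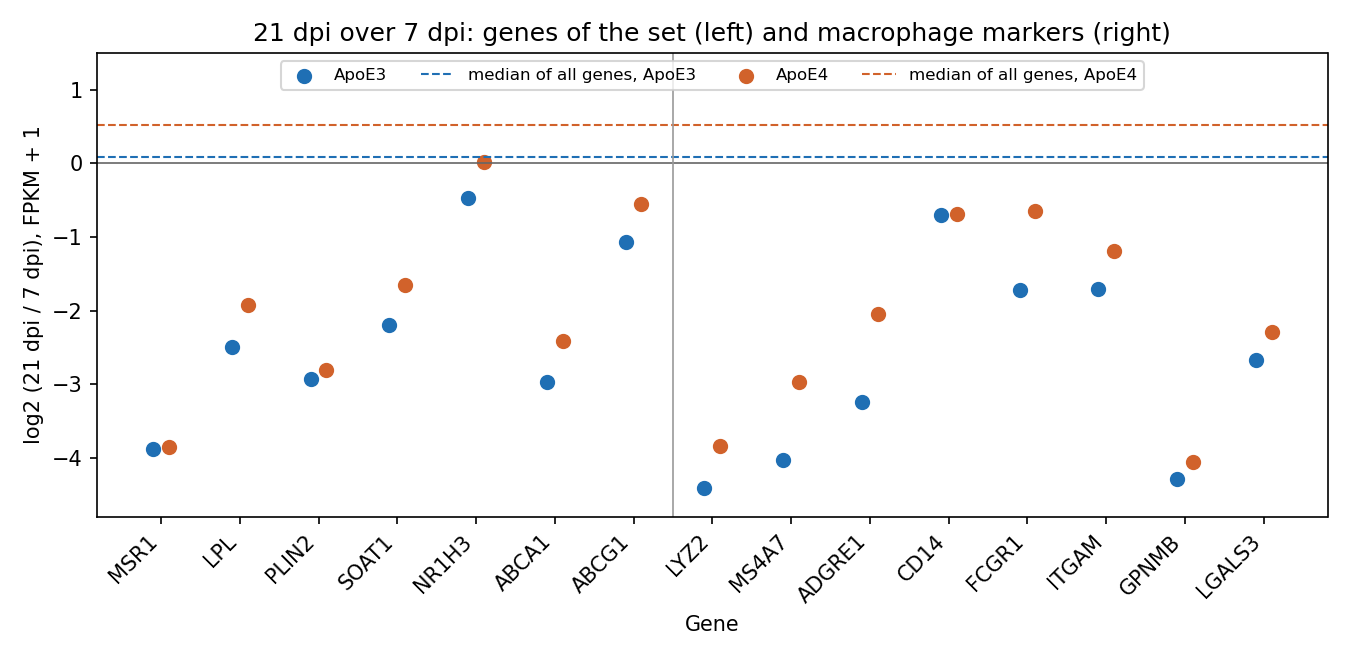
Log2 ratio of 21 dpi over 7 dpi for the 7 genes of the set with rows at both times and for 8 macrophage markers, from FPKM plus 1, in ApoE3 (blue) and ApoE4 (orange), with the median of all genes as dashed lines. MSR1 lies lowest of the set near -3.9 in both genotypes, and NR1H3 lies highest, at -0.47 in ApoE3 and 0.02 in ApoE4.

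The macrophage markers were lower at 21 dpi as well. The sum of the 8 with rows at both times was 6249 FPKM at 7 dpi and 383 FPKM at 21 dpi in ApoE3, and 8183 and 721 FPKM in ApoE4. Minus the median of all genes, these markers had a median of -3.04 in ApoE3 and -2.69 in ApoE4, and the part of macrophage content in the gaps of the set was not tested. By the same measure, the 12 other sterol export genes had -0.34 and -0.37, the 11 other droplet genes -0.14 and 0.14, the 14 other lysosomal genes -0.70 and -0.78, the 8 other uptake receptors -1.09 and -0.75, the 11 other genes of lipolysis and fatty acid transport -0.28 and -0.47, and the 15 sterol synthesis genes 0.07 and 0.13. FABP4 was among the lipid genes with a wide gap, with 41.6 and 3.29 FPKM in ApoE3 and 51.3 and 6.92 FPKM in ApoE4, as was STAB1 with 329 and 36.7 FPKM in ApoE3.

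The 7631 genes outside the set with at least 10 FPKM in every group, genes of the lists included, were ordered by profile. The measure was the distance over the 4 groups from the mean profile of the 7 genes, in log2 values centred on each gene's mean. The nearest was MFAP2, a protein of elastic microfibrils, at a distance of 0.16, with 50.3 and 59.9 FPKM at 7 dpi and 11.1 and 16.1 FPKM at 21 dpi in ApoE3 and ApoE4. RAB7B, a small GTPase of endosomes and lysosomes, came next at 0.16, with 155 and 203 FPKM at 7 dpi in ApoE3 and ApoE4. NLRC3 (0.21), a regulator of innate immune signalling, CD22 (0.21), a receptor for sialic acid, and FNIP2 (0.25) followed. Of the set itself SOAT1 was nearest to its mean profile, at 0.18, and NR1H3 was farthest, at 1.87. That profile was made from these same 7 genes. Of the 7631 other genes, 2 lay nearer to it than SOAT1, and 109 lay nearer than the median of the 7.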

How the data were processed

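RNA from lesion segments of ApoE3 and ApoE4 mice was sequenced at 7 and 21 dpi. The submitters' processing notes name STAR 2.5.4b, Bowtie2 2.1.10, SAMtools 0.1.7 and Cuffdiff 1.3.0. The authors down-sampled the libraries to the size of the smallest, and 1 replicate, whose group the methods do not name, had a lower share of aligned reads than the others. The genome build and annotation are not given in the sources used here. The deposited values are FPKM plus 1, 1 per gene and group, and 1 was subtracted. The table also holds the authors' fold changes, p-values, q-values and significance calls, and another table holds their list of differentially expressed genes. Neither was used. Rows named the comparison as ApoE3 versus ApoE4, and the numerator was read as ApoE3.

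Log2 ratios used a pseudocount of 1 FPKM and a threshold of 1.3-fold. Medians of all genes are over rows averaging 1 FPKM or more. No test was run, because each group has 1 value in the columns used. There were 6 lists of lipid genes, 8 of cell or tissue markers and 1 of 14 housekeeping genes. The members and lists were chosen with earlier results of these data known. Named genes are the 10 genes, genes of the lists past 1.3-fold at either time or among the 4 with the highest mean FPKM over the groups in a list, and the 5 nearest profiles. APOE, CCR2, MYLIP, PLTP, PLIN3 and MRC1 fall outside this rule and were chosen after their values were seen. PLTP falls inside it where the 10 genes are left out of its list. Alternatives were a pseudocount of 0.1 or 0.01, subtraction of the median of all genes or of the housekeeping genes, folds of 1.5 and 2, and a minimum mean FPKM of 1 or 10 for all genes. The pairing of genotypes with the value columns by their number was chosen after seeing the data. The level of 1 gene of the lists is not reported here. Promoters are from RefSeq, GRCm38.p6. Python 3.11.15, numpy 2.4.6, pandas 2.3.3 and matplotlib 3.10.9 were used, and the procedures were tested on simulated data.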

Additional observations from a re-analysis of the deposited data

Results flagged for a closer look

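Several ratios of ApoE3 over ApoE4 had opposite signs at 7 and at 21 dpi, both as deposited and relative to the median of all genes. With 1 value per group, none of these differences between time points was tested. Apart from the astrocyte list, the medians of the lists are not over the same genes at both times. The droplet list had 17 other genes at 7 dpi and 12 at 21 dpi, and the muscle list 5 and 7. The neuron list had 7 at each time, with RBFOX3 at 7 dpi only. The deposited ratios at 21 dpi contain the shift of all genes by -0.42, and after its subtraction some are close to 0. The log2 ratio of ABCG1 was 0.090 at 7 dpi and -0.43 at 21 dpi, the latter -0.0059 relative to the median. The median of the other droplet genes was 0.022 and -0.43, the latter -0.0083 relative to the median, and against the housekeeping median it was -0.014 at 7 dpi and -0.024 at 21 dpi, with no change of sign. The median of the neuron markers was 0.26 and -0.46, the latter -0.034 relative to the median. The median of the astrocyte markers was 0.057 and -0.77, the latter -0.35 relative to the median, and that of the skeletal muscle markers 0.28 and -4.27, the latter -3.85. TNNT3, a muscle troponin, was past 1.3-fold at both times, with 0.76 and -4.46, the latter -4.04 relative to the median.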

How the results depend on the processing

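No paired analysis was possible because each group has 1 value, and for the same reason no replicate could be left out. With pseudocounts of 0.1 and 0.01, the counts past 1.3-fold, the medians of the set and the ratios of each gene kept their direction and their side of the threshold. Subtracting the median of all genes or of the housekeeping genes changed the count higher in ApoE4 at 21 dpi from 7 to 1 in both cases, and the median log2 ratio from -0.62 to -0.19 and -0.21. This follows from the shift of the whole table. At 7 dpi the housekeeping median gave 4 genes in place of 3, with LPL the one gained, and a median of -0.29. MSR1 at 21 dpi turned to 3.1e-05 with the median of all genes, and the change of NR1H3 over time in ApoE4 turned to -0.51 and -0.84 with the medians of all genes and of housekeeping genes. A fold of 1.5 gave 0 genes at 7 dpi and 4 at 21 dpi higher in ApoE4, and a fold of 2 gave 0 at both. Reading the genotypes by column number, chosen after seeing the data, gave 0 genes higher in ApoE4 at both times, 3 higher in ApoE3 at 7 dpi and 7 at 21 dpi, and medians of 0.26 and 0.62. The share of all rows at 21 dpi past 1.3-fold went from 58.9% to 8.07% toward ApoE4 and from 2.02% to 7.47% toward ApoE3 after centring. Without centring, the share toward ApoE3 among genes averaging 10 FPKM or more was 0.995%. FPKM values keep no read numbers, and how far depth limits the genes with low values was not tested.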
